A study of Mus musculus with 12 samples.

Results

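The genes described here are 10 of the 50559 genes listed in liver RNA-seq count tables: the cytochrome P450 genes Cyp2c29, Cyp2c37, Cyp2c38, Cyp2c40, Cyp2c44, Cyp2c50, Cyp2c54, Cyp2c70 and Cyp2j5, and the epoxide hydrolase gene Ephx2. They were taken by name, as genes for making and hydrolysing arachidonic acid epoxides. Of the 10, 9 were matched by symbol, and Cyp2c44 is listed under its RefSeq synonym Cyp2c23. Livers came from C57BL/6N mice in 4 groups of 3 libraries, which the labels call biological replicates. The NCD group ate a normal chow diet and the HFD group a high-fat diet with 60% of energy from fat, each for 12 weeks. The HFD+C1 and HFD+C2 groups ate the high-fat diet and were injected intraperitoneally with compound C1 or compound C2, at a daily dose of 5 mg/kg over the same 12 weeks. Both compounds are CYP4A inhibitors by the title of the series, and the design sets the liver profile of treated HFD-fed mice against that of HFD-fed mice. Whether the NCD and HFD mice were injected with vehicle, and the sex and age of the mice, are not given in the sources used here.

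Cytochrome P450 epoxygenases of the CYP2C and CYP2J families add oxygen across a double bond of arachidonic acid, a polyunsaturated fatty acid released from membrane lipids, and form epoxyeicosatrienoic acids (EETs), lipid mediators known for effects on vascular tone and inflammation. Soluble epoxide hydrolase, the product of Ephx2, adds water to EETs and turns them into diols, so the 2 enzyme classes act in sequence. In mouse liver these enzymes are hepatocyte proteins that also oxidise drugs, steroids and bile acids, and the CYP4A enzymes use the same fatty acid by another route, hydroxylation at its tail.

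Of the 8 Cyp2c genes, 7 lie in 1 cluster on chromosome 19 of GRCm38, from Cyp2c29 (chr19:39287044-39330713) through Cyp2c38 (chr19:39389556-39463103), Cyp2c40 (chr19:39767073-39812814), Cyp2c37 (chr19:39992424-40012243), Cyp2c54 (chr19:40037939-40073845) and Cyp2c50 (chr19:40089679-40113955) to Cyp2c70 (chr19:40153361-40187286). Cyp2c44 is apart on the same chromosome (chr19:44005022-44029256). Cyp2j5 is at chr4:96627432-96664171 and Ephx2 at chr14:66084372-66124522. Several of these genes are close copies, which bears on how far reads can be assigned to each. The last 60 coding bases, stop codon included, show this for the genes that the results turn on (GENCODE M21 transcripts, GRCm38, read 5′ to 3′ on the coding strand). Capitals mark bases that differ between Cyp2c29 and Cyp2c38, between Cyp2c37 and Cyp2c50, between Cyp2c54 and Cyp2c50, between Cyp2c40 and its neighbour Cyp2c69, and between Cyp2c67 and Cyp2c40.
Cyp2c29: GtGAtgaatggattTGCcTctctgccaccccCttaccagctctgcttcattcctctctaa
Cyp2c38: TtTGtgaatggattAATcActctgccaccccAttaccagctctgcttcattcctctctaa
Cyp2c37: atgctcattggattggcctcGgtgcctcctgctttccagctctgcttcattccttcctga
Cyp2c50: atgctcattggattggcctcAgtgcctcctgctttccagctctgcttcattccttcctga
Cyp2c54: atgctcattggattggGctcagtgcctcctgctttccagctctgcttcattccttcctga
Cyp2c40: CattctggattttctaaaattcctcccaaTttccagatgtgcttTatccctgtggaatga
Cyp2c69: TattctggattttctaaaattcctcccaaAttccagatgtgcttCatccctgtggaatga
Cyp2c67: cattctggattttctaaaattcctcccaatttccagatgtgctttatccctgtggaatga

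Cyp2c29 and Cyp2c38 differ at 8 of these 60 bases, Cyp2c37 and Cyp2c50 at 1, Cyp2c40 and Cyp2c69 at 3, and Cyp2c40 and Cyp2c67 at 0. Over the whole coding sequence Cyp2c37 was 96.1% identical to Cyp2c50 and Cyp2c54 95.2% identical to Cyp2c50, and Cyp2c29 was 89.1% identical to Cyp2c38. Cyp2c40 was 97.7% identical to Cyp2c67, 98.1% to Cyp2c68 and 97.9% to Cyp2c69. Of the 50-base stretches of each transcript, the share that also occurs in a transcript of another gene was 72.1% for Cyp2c40, 30.7% for Cyp2c50, 30.1% for Cyp2c37, 25.7% for Cyp2c54, 7.45% for Cyp2c38 and 2.08% for Cyp2c29, and it was 0.174% for Cyp2j5 and 0% for Cyp2c44, Cyp2c70 and Ephx2. How the authors' counting treated reads that fit several genes beyond setting them aside is not given in the sources used here, so counts of Cyp2c40, and to a lesser degree of Cyp2c37, Cyp2c50 and Cyp2c54, are uncertain between copies.

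RefSeq promoter entries were found for 7 of the 10 genes. The upstream bases of Cyp2c29, Cyp2c38 and Cyp2c70 are shown because their diet values differ although the first pair lie next to each other among the 10 genes and have similar promoters. They are chr19:39286835-39287043 on the plus strand, chr19:39463104-39463325 on the minus strand and chr19:40187287-40187536 on the minus strand (GRCm38.p6, read 5′ to 3′ on each gene's strand, ending where the annotated gene begins). The motifs searched on both strands were TATAAA (the core promoter box bound by TBP), AGGTCA (the core of nuclear receptor sites), the DR1 repeat of that core with 1 base between, CAAAGTCCA (an HNF4-type site), TGTTTAC (a forkhead site) and TTCNNNGAA (a STAT-type site). DR1 overlaps AGGTCA by construction. Capitals mark the matches that lie wholly in the printed bases, TTTATA being TATAAA on the other strand.
Cyp2c29: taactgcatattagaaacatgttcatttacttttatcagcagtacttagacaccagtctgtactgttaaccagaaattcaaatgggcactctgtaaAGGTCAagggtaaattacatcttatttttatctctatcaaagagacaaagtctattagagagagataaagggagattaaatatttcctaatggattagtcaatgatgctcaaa
Cyp2c38: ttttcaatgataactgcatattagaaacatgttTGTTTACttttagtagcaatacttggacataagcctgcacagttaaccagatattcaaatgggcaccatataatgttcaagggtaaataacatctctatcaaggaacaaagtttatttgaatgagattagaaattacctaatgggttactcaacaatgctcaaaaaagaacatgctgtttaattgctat
Cyp2c70: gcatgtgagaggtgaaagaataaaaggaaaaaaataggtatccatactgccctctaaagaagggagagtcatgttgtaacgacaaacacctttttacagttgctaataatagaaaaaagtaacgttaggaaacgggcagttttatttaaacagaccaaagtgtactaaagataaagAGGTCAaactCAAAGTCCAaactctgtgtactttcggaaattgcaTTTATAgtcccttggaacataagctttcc

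Over the 250 bases before the start in the RefSeq promoter table, which for Cyp2c29 and Cyp2c38 lies inside the annotated gene so that only 209 and 222 of them are upstream of it, Cyp2c29 and Cyp2c38 were identical at 82% of aligned bases, against 58% for Cyp2c29 and Cyp2c70 and 59.8% for Cyp2c38 and Cyp2c70. The 250-base window of Cyp2c29 held AGGTCA and TATAAA, that of Cyp2c38 TGTTTAC and TATAAA, and that of Cyp2c70 AGGTCA, CAAAGTCCA and TATAAA. The last of these motifs lies inside the annotated gene in Cyp2c29 and reaches across its start in Cyp2c38, so neither match is among the bases printed. Among the 32851 promoter windows of the same length in the RefSeq table, 14% held AGGTCA, 12.4% TATAAA, 3.17% TGTTTAC, 0.384% CAAAGTCCA, 7.02% TTCNNNGAA and 0.0335% DR1. CAAAGTCCA was also present upstream of Cyp2c40 and of its close copies Cyp2c67, Cyp2c68 and Cyp2c69, and Cyp2c37 and Cyp2c50, 87.8% identical upstream, held none of the 6 motifs. A match is a description of the letters and not a site of binding.

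Library depth, as reads counted in genes, was lowest at 4281210 (NCD replicate 2) and highest at 32124248 (HFD replicate 1). A floor of 3 reads is 0.701 and 0.0934 CPM there (reads per 1e6 reads counted in genes). Floors cover counting error only, whereas the 95% intervals given with log2 values come from edgeR and include the spread between libraries. NCD replicate 1 stood apart: 58.2% of its reads were not assigned to a gene, and the summed level of 9 hepatocyte markers, all above the floor in every library, was 36058 CPM in it against 85016 and 85152 CPM in the other NCD libraries and 90959 to 113144 CPM in HFD. HFD+C2 replicate 1 stood apart too, with 47.1% unassigned reads and 76083 CPM of hepatocyte markers, against 27.3% to 40.7% unassigned in the other 10 libraries. Hepatocyte markers were thus high in every library, and summed levels were at most 3.55 CPM for adipocyte, 0.507 CPM for pancreatic acinar and 12.2 CPM for lymphocyte markers. Muscle markers summed to 71.2 CPM in NCD replicate 3 and to at most 15.8 CPM elsewhere. In bulk tissue, fewer cells of a type and less RNA per cell cannot be told apart.

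Per kilobase of transcript (CPM per kb, the scale used here to compare genes), Cyp2c29 was the most abundant of the 10 genes in NCD liver at 1153 ± 591 (SD, n = 3), followed by Ephx2 at 657 ± 15.5, Cyp2j5 at 505 ± 53.2, Cyp2c50 at 397 ± 214 and Cyp2c70 at 262 ± 13.0. Lower levels were those of Cyp2c37 at 152 ± 75.2, Cyp2c54 at 134 ± 70.3, Cyp2c44 at 46.3 ± 22.4, Cyp2c38 at 6.80 ± 2.32 and Cyp2c40 at 4.59 ± 4.41 CPM per kb. Of the 9 steps in this order, the ranges of neighbours were apart only for Ephx2 over Cyp2j5, Cyp2c70 over Cyp2c37 and Cyp2c44 over Cyp2c38. In HFD liver Ephx2 came first at 678 ± 44.9 CPM per kb, with no library overlapping Cyp2c29 at 409 ± 123, and Cyp2j5 at 342 ± 44.9 and Cyp2c50 at 281 ± 95.2 followed with overlapping ranges. The same 4 genes led in HFD+C1 and HFD+C2 liver in the same order of means. Cyp2c38, at 27.1 ± 8.01 CPM per kb in HFD liver, had a group mean above only that of Cyp2c40 in every group. Library by library it overlapped Cyp2c54 in HFD, where 1 of 3 libraries had Cyp2c54 higher, and Cyp2c40 in NCD, where 2 of 3 libraries had Cyp2c38 higher.

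**Figure D1:**
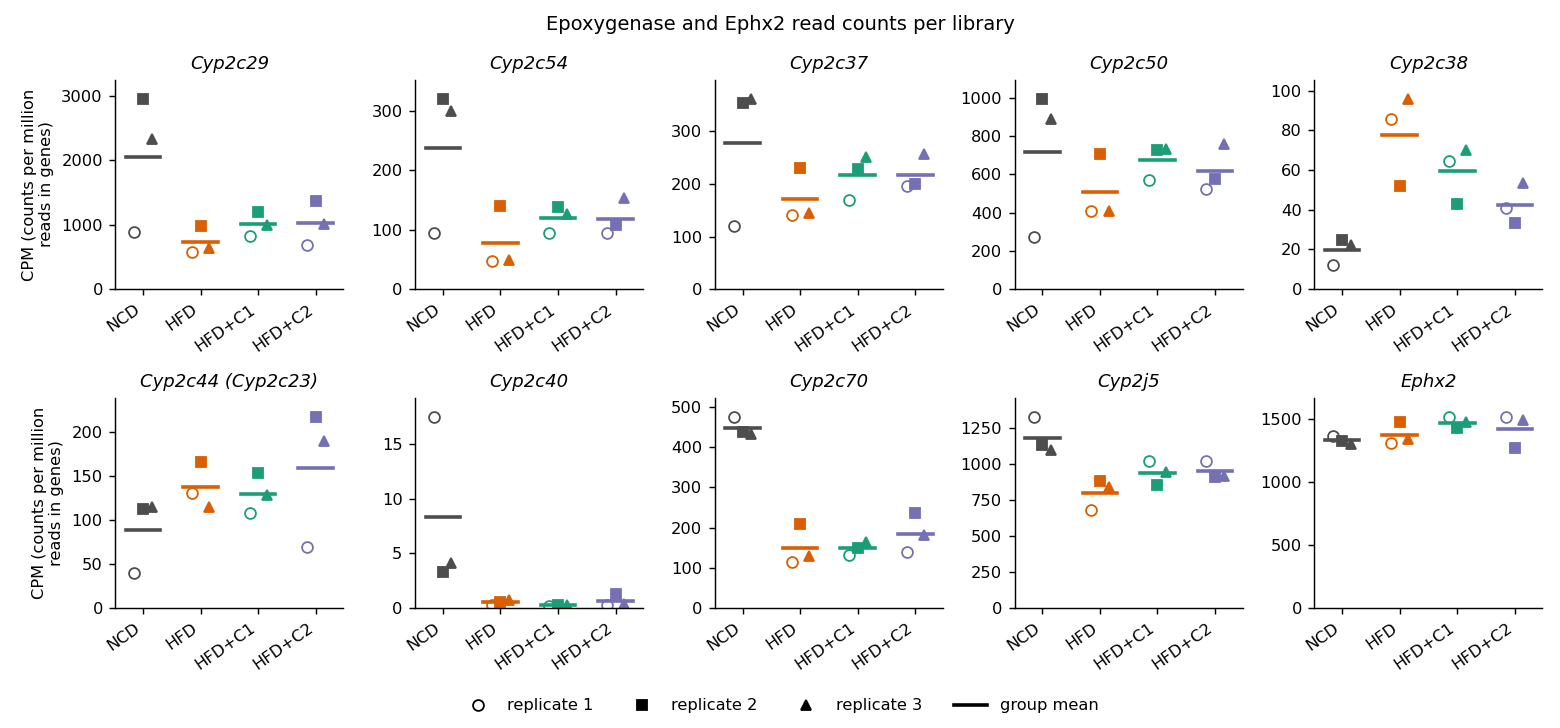
Level of each gene in each of the 12 libraries, in CPM on linear axes from 0 (open circles, squares and triangles are replicates 1, 2 and 3 of a group, bars are group means of 3 libraries). Cyp2c38 was at 12.0 to 24.5 CPM in NCD and 52.0 to 95.9 CPM in HFD liver, Cyp2c70 at 434 to 475 CPM and 113 to 209 CPM, and NCD replicate 1 lay far below the other NCD libraries for Cyp2c29, Cyp2c37, Cyp2c50, Cyp2c54 and Cyp2c44.

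In the diet comparison (HFD against NCD) 3 of the 10 genes passed the test, an adjusted p under 0.05 (quasi-likelihood test of edgeR, Benjamini-Hochberg over all genes): Cyp2c38 rose, and Cyp2c70 and Cyp2c40 fell. Of all 13864 genes tested, 6.03% were called, 2.59% higher and 3.44% lower. Cyp2c29 and Cyp2c54 had lower means in HFD without passing the test, and Ephx2 differed by 0.26 on the log2 scale. The median log2 change of the 10 genes was -0.43, beside -0.02 for all genes. On the scale normalised by TMM (edgeR's trimmed mean of M-values), 3 of the 10 were higher and 3 lower with no overlap between groups, and among all genes tested 37.2% did not overlap (19% higher, 18.1% lower). All 3 calls were lost without HFD replicate 1 or without HFD replicate 3, when 23 and 25 genes of the whole table were called, and without NCD replicate 1 the number of called genes among the 10 was 7, with 1838 of 13412 genes called in that fit. Without HFD replicate 2 Cyp2c38 and Cyp2c70 passed and Cyp2c40 did not (adjusted p = 0.112). Of the markers of other liver cells, the collagen genes Col1a1 (2.58, adjusted p = 0.00927) and Col3a1 (1.19, adjusted p = 0.0244) and the sinusoidal endothelial marker Lyve1 (2.20, adjusted p = 0.0361) were called higher in HFD. The summed levels of their lists overlapped, at 91.4 to 115 CPM in NCD and 96.3 to 125 CPM in HFD for 7 stellate cell and fibroblast markers and at 75.8 to 95.8 and 68.9 to 93.1 CPM for 6 endothelial markers. Their part in the diet values was not tested.

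Cyp2c29, whose enzyme forms EETs, was at 894, 2950 and 2323 CPM in NCD replicates 1 to 3 and at 575, 980 and 633 CPM in HFD. NCD replicates 2 and 3 were above every HFD library, and NCD replicate 1 was below HFD replicate 2. The log2 change was -1.32 (SE 0.43, adjusted p = 0.0952), not a call by edgeR. It was a call with DESeq2 (adjusted p = 0.0144), with all 12 libraries in 1 fit (0.0355) and without a filter (0.00339). Without NCD replicate 1 it was -1.70 with an adjusted p of 0.000118, and it was between -0.95 and -1.55 without any other single library, never then past the threshold.

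Cyp2c38, an epoxygenase closely related to Cyp2c29, was at 12.0, 24.5 and 22.0 CPM in NCD and at 85.7, 52.0 and 95.9 CPM in HFD. Every HFD library was above every NCD library. It rose by 2.21 on the log2 scale (SE 0.35, 95% interval 1.40 to 3.02, 4.63-fold, adjusted p = 0.0212). Without NCD replicate 1 the change was 1.91 (adjusted p = 0.000278), and without HFD replicate 1 or 3 it was 2.12 or 2.04 with an adjusted p of 0.153 or 0.133.

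The levels of the pair were also set against each other within each library. The ratio of Cyp2c29 to Cyp2c38, each per kb, was 120, 194 and 170 in NCD replicates 1 to 3 and 10.8, 30.3 and 10.6 in HFD, a quantity that does not depend on how libraries are scaled and to which both genes contribute. All 3 NCD ratios were above all 3 HFD ratios, NCD replicate 1 included. With C1 the ratio was 20.5, 44.6 and 22.8, and with C2 26.9, 65.4 and 30.5. In all 4 groups replicate 2 had the highest ratio, and no value of the HFD-fed groups reached the lowest NCD value.

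**Figure D2:**
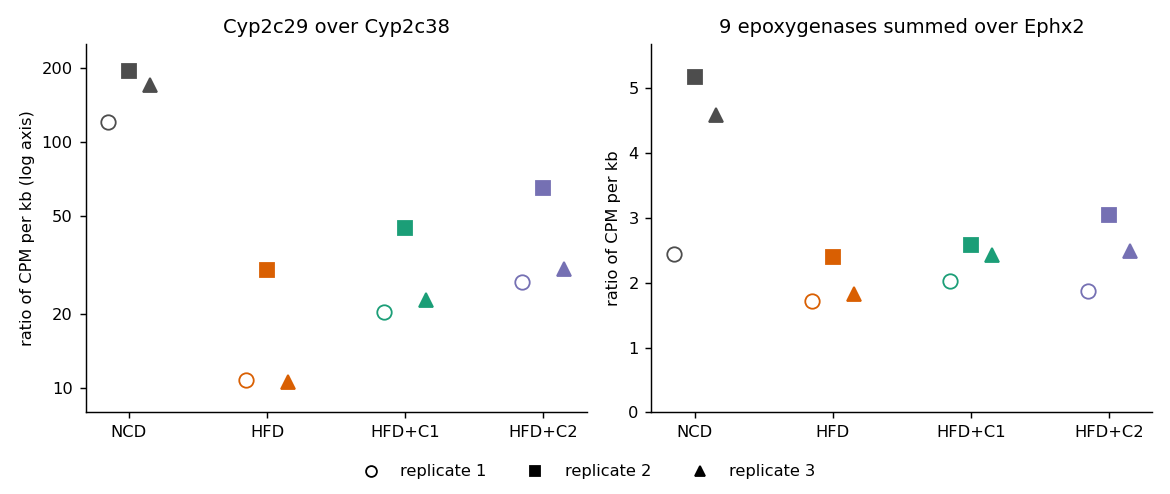
Left, the ratio of Cyp2c29 to Cyp2c38 in each library (CPM per kb, log axis). Right, the summed level of the 9 P450 genes over that of Ephx2 (CPM per kb, linear axis from 0). Points are libraries, with open circles, squares and triangles for replicates 1, 2 and 3. The left ratios were 120 to 194 in NCD and 10.6 to 30.3 in HFD liver, and the right ratios 2.44 to 5.17 and 1.72 to 2.40.

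Cyp2c37, Cyp2c50 and Cyp2c54, near-identical copies whose enzymes form epoxides and hydroxylated products of arachidonic acid, did not pass the edgeR test. Cyp2c54 was at 93.9, 321 and 301 CPM in NCD and 47.1, 139 and 48.6 CPM in HFD. Its log2 change was -1.44 (SE 0.55, adjusted p = 0.133), or -2.10 without HFD replicate 2 (adjusted p = 0.143). It passed with DESeq2 (adjusted p = 0.0358), with all 12 libraries in 1 fit (0.0460) and without a filter (3e-05). Cyp2c37 was at 120, 353 and 362 CPM in NCD and 141, 230 and 145 CPM in HFD. Cyp2c50 was at 274, 994 and 887 CPM in NCD and 409, 708 and 409 CPM in HFD. For all 3 genes NCD replicates 2 and 3 were above every HFD library and NCD replicate 1 was below HFD replicate 2, the highest HFD library. The log2 changes of Cyp2c37 and Cyp2c50 were -0.52 (adjusted p = 0.435) and -0.32 (adjusted p = 0.668). Without NCD replicate 1 all 3 passed, with -1.85 for Cyp2c54 (adjusted p = 0.00285), -0.91 for Cyp2c37 (0.00651) and -0.74 for Cyp2c50 (0.0297).

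Cyp2c40, whose enzyme hydroxylates arachidonic acid, was scarce: 172, 14 and 95 reads in NCD and 9, 15 and 17 reads in HFD, which are 17.4, 3.27 and 4.10 CPM and 0.280, 0.534 and 0.675 CPM. No NCD library was as low as the highest HFD library, and NCD replicate 1 exceeded the remaining NCD libraries. It fell by 3.83 on the log2 scale (SE 0.67, adjusted p = 0.0254), and by 2.81 without NCD replicate 1 (adjusted p = 0.000524). With limma on log2(CPM + 1) the change was -2.19 with an adjusted p of 0.0527. Its close copy Cyp2c69 was at 1.42, 2.10 and 1.68 CPM in NCD and 0.156, 0.142 and 0.238 CPM in HFD. It was called lower (adjusted p = 0.0302), on 15 reads in HFD and 62 in NCD. It passed the filter through NCD alone, so no fold is given. The more abundant copies Cyp2c67 and Cyp2c68 had log2 changes of -0.76 (adjusted p = 0.0413) and -0.62 (adjusted p = 0.0638).

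Cyp2c70, known in mice for making the hydrophilic muricholic acids from bile acids more than for EETs, was at 475, 439 and 434 CPM in NCD and at 113, 209 and 128 CPM in HFD. The NCD libraries lay close together, NCD replicate 1 among them, and all were above all HFD libraries. It fell by 1.38 on the log2 scale (SE 0.24, 95% interval -1.92 to -0.84, adjusted p = 0.0245), a level 2.60-fold lower. Leaving out any 1 library gave -1.22 to -1.65, with the call lost without HFD replicate 1 (adjusted p = 0.182) or HFD replicate 3 (0.158).

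Cyp2c44, an epoxygenase of liver and kidney, was at 39.3, 112 and 115 CPM in NCD and at 131, 166 and 115 CPM in HFD. The groups touched, with NCD replicate 3 at 114.8 and HFD replicate 3 at 115.0 CPM. The log2 change was 0.81 (SE 0.39, adjusted p = 0.209), and 0.42 without NCD replicate 1 (adjusted p = 0.118). Without a filter it was a call (0.95, adjusted p = 0.00391). Cyp2j5, the CYP2J epoxygenase of kidney and liver, was at 1326, 1130 and 1095 CPM in NCD and 683, 884 and 838 CPM in HFD. All NCD libraries were above all HFD libraries, but the log2 change of -0.35 (SE 0.18, adjusted p = 0.234) was not a call.

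Ephx2, the hydrolase of the set, was at 1371, 1332 and 1309 CPM in NCD, and at 1310, 1484 and 1346 CPM in HFD. The treated groups had 1518, 1432 and 1477 CPM with C1 and 1517, 1272 and 1492 CPM with C2. In CPM the NCD libraries overlapped those of HFD and HFD+C2, and all 3 HFD+C1 libraries were above all NCD libraries. On the TMM scale Ephx2 was higher than in NCD with no overlap in HFD (as were 19% of all genes), HFD+C1 (18.3%) and HFD+C2 (15.2%), all against the same 3 NCD libraries. The log2 change from NCD was 0.32 with C1 (adjusted p = 0.231) and 0.37 with C2 (adjusted p = 0.419) by edgeR, and DESeq2 called Ephx2 with C1 (0.31, adjusted p = 0.0363). The diet log2 change was 0.26 (SE 0.17, 95% interval -0.14 to 0.65, adjusted p = 0.351). With scaling by library size alone, which moved the median log2 change of all genes by -0.22, it was 0.04. The summed level of the 9 P450 genes over that of Ephx2, both per kb, was 2.44, 5.17 and 4.58 in NCD against 1.72, 2.40 and 1.83 in HFD. With C1 it was 2.03, 2.58 and 2.43, and with C2 1.87, 3.04 and 2.49. NCD replicate 1 was within the range of the treated groups and just above HFD replicate 2, while the other NCD libraries were above all 9 HFD-fed libraries. Of the summed P450 level, Cyp2c29 alone made 30.4%, 48.9% and 44.2% in NCD and 29.1%, 31.5% and 29.3% in HFD.

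**Figure D3:**
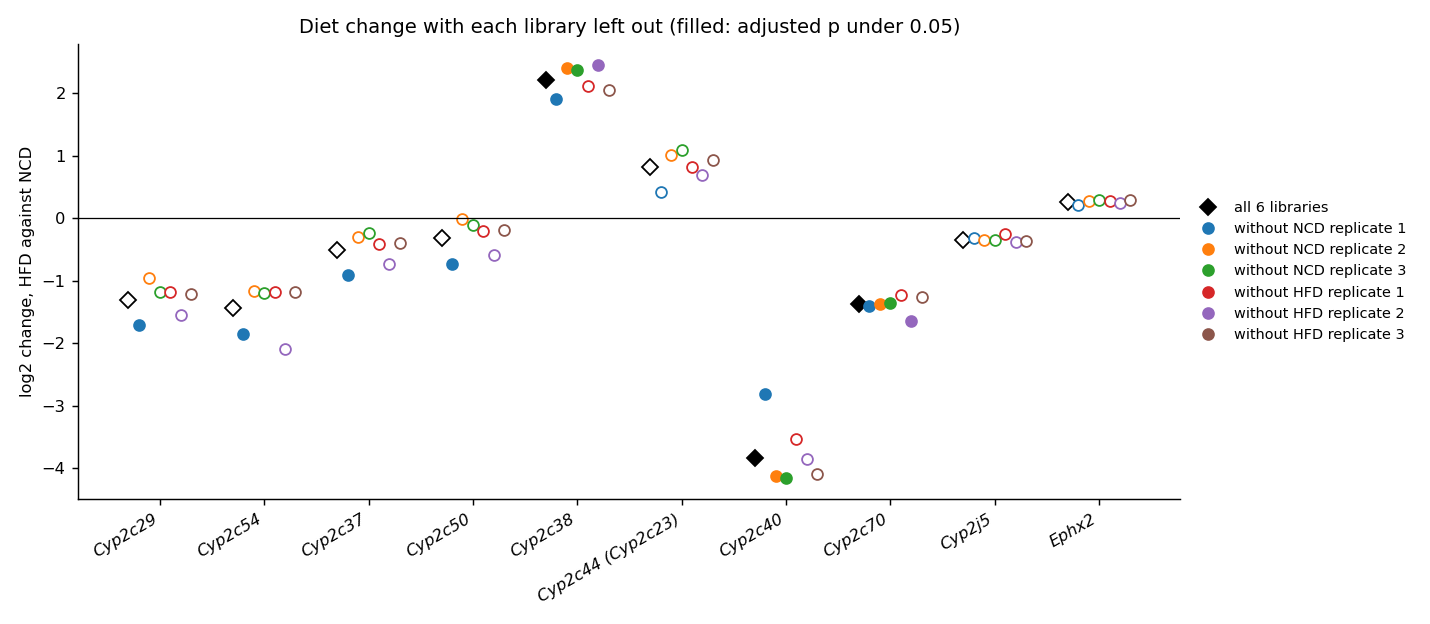
Log2 change between HFD and NCD for each gene with all 6 libraries (diamonds) and with each library left out (circles, coloured by the library left out). Filled symbols had an adjusted p under 0.05. Without NCD replicate 1 the filled symbols include Cyp2c29, Cyp2c54, Cyp2c37 and Cyp2c50, and without HFD replicate 1 or 3 none is filled.

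For compound C1 (HFD+C1 against HFD), 0 of the 9 genes tested passed, and Cyp2c40, at 4, 6 and 4 reads in HFD+C1, was below the filter. Of all 13358 genes tested 0.0524% were called. At an unadjusted p under 0.05 there were 2 of the 9, Cyp2c29 and Cyp2c50, beside 7.75% of all genes. DESeq2, limma, the other scalings and the stricter filter also called 0, and without a filter on low counts 1 gene, Cyp2c54, was called. The median log2 change of the 9 was 0.21, beside 0.0063 for all genes. On the TMM scale Cyp2j5 and Ephx2 were higher with no overlap, as were 6.36% of all genes.

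Cyp2c29 was at 823, 1190 and 995 CPM in HFD+C1, and HFD replicate 2 (980 CPM) lay within that range. Its log2 difference was 0.45 (SE 0.18, 95% interval 0.05 to 0.85, adjusted p = 0.578). Cyp2c54 was at 94.6, 139 and 127 CPM and differed by 0.62 (SE 0.32, adjusted p = 0.691). Cyp2c50 was at 571, 727 and 732 CPM and differed by 0.40 (SE 0.18, adjusted p = 0.644). HFD replicate 2 was the highest HFD library for these 3 genes, and without it Cyp2c54 (1.28, adjusted p = 0.00171) and Cyp2c50 (0.68, adjusted p = 0.0288) passed. Cyp2c38 was at 64.7, 42.9 and 70.3 CPM, with a log2 difference of -0.43 (adjusted p = 0.693). Cyp2c70 was at 131, 148 and 164 CPM, Cyp2c44 at 108, 153 and 128 CPM, Cyp2c37 at 170, 228 and 250 CPM and Cyp2j5 at 1022, 852 and 945 CPM. The log2 differences of these 4 lay between -0.10 and 0.31, and that of Ephx2 was 0.08 (95% interval -0.16 to 0.31). Summed marker levels were higher with C1 for 2 lists. The 7 Kupffer cell and macrophage markers summed to 127 to 180 CPM without C1 and 220 to 280 CPM with it. The 8 pericentral hepatocyte markers summed to 5556 to 7295 and 7297 to 8119 CPM, ranges that nearly touched. At an unadjusted p under 0.05 there were 6 of these 7 and 2 of these 8, all higher with C1 and 0 of them called. All 7 and all 8 markers were above the floor in every library, and their part in these values was not tested.

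For compound C2 (HFD+C2 against HFD), 0 of 10 genes passed, beside 0.0222% of 13503 genes tested. At an unadjusted p under 0.05 there was 1, Cyp2c38, beside 6.89% of all genes. DESeq2 and limma called 0, and without a filter on low counts Cyp2c38 was called. On the TMM scale Cyp2j5 was higher with no overlap, as were 6.69% of all genes. Cyp2c38 was at 40.7, 33.5 and 53.7 CPM in HFD+C2, and HFD+C2 replicate 3 was just above HFD replicate 2 (52.0 CPM). Its log2 difference was -0.84 (SE 0.26, 95% interval -1.42 to -0.27, adjusted p = 0.695), and -0.87 without HFD+C2 replicate 1 (adjusted p = 0.275). Cyp2c29 was at 682, 1361 and 1018 CPM and differed by 0.53 (SE 0.28, adjusted p = 0.696). Cyp2c44 was at 69.6, 217 and 190 CPM, the widest range of this gene in any group, and differed by 0.24, or by 0.57 without HFD+C2 replicate 1 (adjusted p = 0.281). Cyp2c70 was at 138, 235 and 180 CPM and differed by 0.35 (SE 0.26, adjusted p = 0.727). Cyp2c37 (196, 200 and 256 CPM), Cyp2c50 (520, 575 and 757 CPM), Cyp2c54 (95.2, 108 and 153 CPM) and Cyp2j5 (1022, 911 and 918 CPM) had log2 differences of 0.30 to 0.65, and Ephx2 one of 0.10. That of Cyp2c54, 0.65, was 1.32 without HFD replicate 2 (adjusted p = 0.354). Cyp2c40 was at 0.259, 1.28 and 0.341 CPM, from 6, 35 and 8 reads, with HFD+C2 replicate 2 apart from the others. Kupffer cell and macrophage markers summed to 175 to 352 CPM with C2, overlapping the 127 to 180 CPM of HFD, with a median log2 difference of 0.78 over the 7 markers (0.74 with C1). At an unadjusted p under 0.05 there were 5 of these 7 and 2 of 6 endothelial markers, all higher with C2 and 0 of them called. Their part in these values was not tested.

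**Figure D4:**
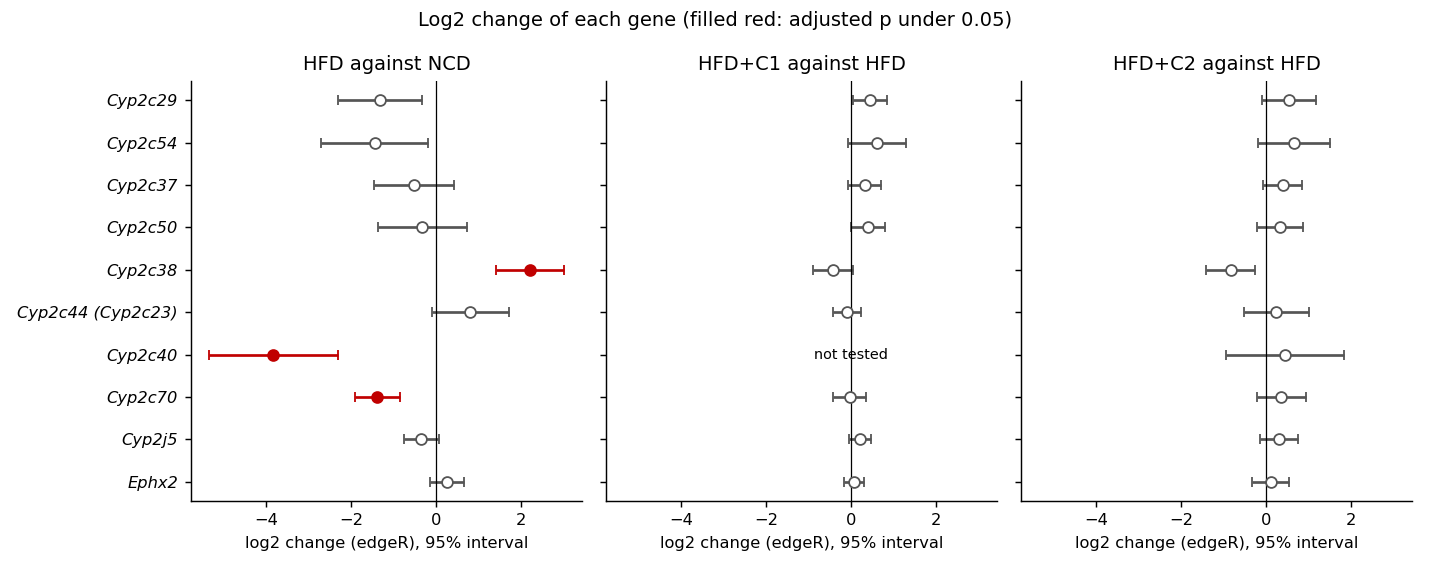
Log2 change of each gene in the diet, C1 and C2 comparisons, with 95% intervals from edgeR (3 libraries against 3). Filled red points had an adjusted p under 0.05. Only Cyp2c38, Cyp2c40 and Cyp2c70 in the diet comparison are filled, and Cyp2c40 was not tested for C1.

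Both compounds were given at 5 mg/kg per day, and setting the C2 group directly against the C1 group gave 0 calls among 10 genes and 0% of 13229 genes tested. At an unadjusted p under 0.05 there was 1 of the 10, Cyp2c40, and 4.6% of all genes, and DESeq2 also called 0 of the 10. The log2 difference of Cyp2c38 was -0.40 (95% interval -0.89 to 0.08), that of Cyp2c70 0.39 (-0.08 to 0.86), that of Cyp2c29 0.09 (-0.51 to 0.69) and that of Ephx2 0.03 (-0.39 to 0.45). Cyp2c40 had 14 reads in HFD+C1 and 49 in HFD+C2, of which 35 were in HFD+C2 replicate 2. It entered this comparison through HFD+C2 alone, so its log2 difference of 1.68 (adjusted p = 0.841) and its lack of overlap (shared by 6.01% of all genes in the same direction) support nothing. Without HFD+C2 replicate 2 it was below the filter. That of Cyp2c44 was 0.34 (-0.44 to 1.12), and it was 0.67 without HFD+C2 replicate 1 and 0.018 without HFD+C2 replicate 2. Intervals of the other 4 genes were -0.35 to 0.50 for Cyp2c37, -0.50 to 0.36 for Cyp2c50, -0.42 to 0.50 for Cyp2c54 and -0.32 to 0.52 for Cyp2j5. The intervals of these 9 genes leave room for differences in either direction, so the absence of calls does not show that C1 and C2 act alike.

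Against NCD, the treated groups were compared with the same 3 control libraries as HFD was, so the comparisons are not independent. HFD+C1 against NCD called 3 of 10 genes, beside 3.4% of 13534 genes (1.47% higher, 1.93% lower): Cyp2c38 was higher by 1.77 on the log2 scale (SE 0.32, adjusted p = 0.0364), Cyp2c40 was lower (adjusted p = 0.0191) and Cyp2c70 fell by 1.42 (SE 0.16, adjusted p = 0.00952). Cyp2c40 had 14 reads in HFD+C1 and 281 in NCD, so it passed the filter through NCD alone. Its fitted log2 change of -5.07 rests on those few reads, and with a mean of at least 50 counts it was not tested. All 3 calls were lost when any 1 of the HFD+C1 libraries was left out, and Cyp2c38 was not called without NCD replicate 3 (adjusted p = 0.0650). Without NCD replicate 1 there were 6 calls, with 1583 of 13049 genes called, and the log2 change of Cyp2c38 was 1.48 and that of Cyp2c40 -4.04. HFD+C2 against NCD called 0 of 10, beside 1.6% of 13691 genes. The values were 1.38 for Cyp2c38 (adjusted p = 0.0648), -3.39 for Cyp2c40 (0.0630) and -1.02 for Cyp2c70 (0.0740). That of Cyp2c40 was -2.35 without NCD replicate 1 and -4.44 without HFD+C2 replicate 2, neither of them a call. At an unadjusted p under 0.05 there were 3, beside 22.4% of all genes, and DESeq2 called 3, with 1425 of 13691 genes. Without NCD replicate 1 and HFD+C2 replicate 1 together, 6 passed, with 1273 of 13192 genes called: Cyp2c38 (1.05), Cyp2c44 (0.99), Cyp2c70 (-0.91), Cyp2c29 (-0.99), Cyp2c54 (-1.11) and Cyp2c40 (-2.04).

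Around these genes, 131 genes of 8 related lists were read in the same fits, and of the 106 tested for the diet 12 were called higher and 15 lower. With 3 called marker genes these made 30 calls, of which 4, 11 and 3 were called without HFD replicates 1, 2 and 3. Among 7 tested of the other Cyp2c and Cyp2j genes, 1 was called higher and 3 lower. Cyp2c39, which shares 94.2% of its coding bases with Cyp2c38, was at 0.234 to 0.907 CPM in NCD and 2.63 to 4.29 CPM in HFD, and rose by 2.47 on the log2 scale (adjusted p = 0.0299). Cyp2c55, a hydroxylase of arachidonic acid, was at 16.8, 18.2 and 12.9 CPM in NCD and 1.46, 2.60 and 1.90 CPM in HFD, and fell by 2.78 (adjusted p = 0.00395). Cyp2c39, from low counts, rose as Cyp2c38 did.

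Among 6 tested electron donors and other epoxide hydrolases, 1 was called. Por, the reductase that passes electrons to all microsomal P450 enzymes, was at 174, 228 and 156 CPM in NCD and 62.9, 82.3 and 70.6 CPM in HFD and fell by 1.16 on the log2 scale (SE 0.20, adjusted p = 0.0254). Every NCD library was above every HFD library. Of 15 tested genes for arachidonic acid supply and release, 3 were called higher and 1 lower. The fatty acid elongase Elovl5 rose by 0.93 (adjusted p = 0.0397), the desaturase gene Fads2, named as the third of 3 calls after its value was seen, by 0.79 (0.0485) and the monoacylglycerol lipase Mgll by 1.01 (0.0385), and Acsl4, which activates arachidonic acid with coenzyme A, fell by 2.25 (0.0358). NCD replicate 1 held 204 CPM of Acsl4 against 58.6 and 59.1 CPM in the other NCD libraries, and without it the log2 change of Acsl4 was -1.48 (adjusted p = 9.65e-05).

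Among 10 tested genes of the other oxygenation routes 1 was called, the lipoxygenase gene Alox15, which was lower in HFD. It had 63 reads in NCD and 9 in HFD and passed the filter through NCD alone, so no fold is given. Among 13 tested Cyp4 genes 1 was called, Cyp4f14, which fell by 1.01 on the log2 scale (adjusted p = 0.0456). Of 26 tested xenobiotic and sterol P450 genes 4 were called higher and 8 lower. Cyp2b13 and Cyp2b9 rose by 4.97 and 3.87. Cyp2b13 had 24 reads in NCD, a mean under the filter, and was at 5.77 without NCD replicate 3. By contrast, Cyp2b10, the classical target of the receptor CAR, fell by 5.05 and the sterol demethylase gene Cyp51 by 3.13. Of 25 tested transcription factor genes 3 were called, all higher, among them the clock output factor Dbp and the fatty acid receptor Ppara (1.13, adjusted p = 0.0419). Dbp had 3 reads in all in NCD, under the floor in each library, and 207 reads in HFD, so it passed the filter through HFD alone. The ratio of its pooled CPM was 30.1 (exact 95% interval 10.2 to 147, for counting error only). Pparg, the only call among 4 tested receptors and channels linked to EETs, rose by 0.94 (adjusted p = 0.0419).

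**Figure D5:**
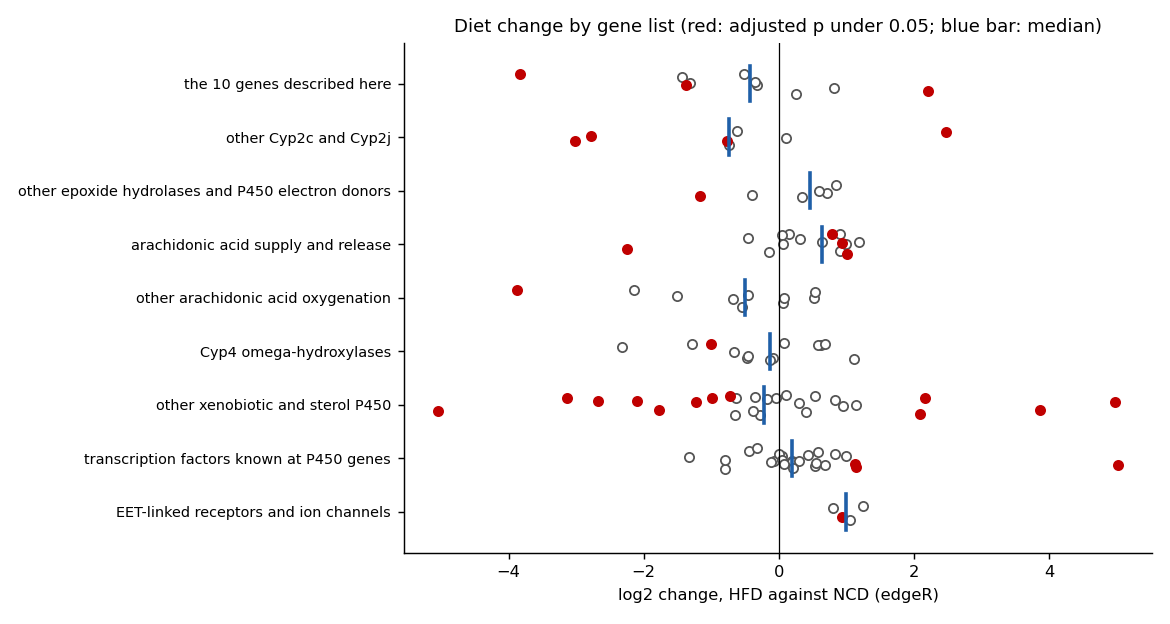
Log2 change between HFD and NCD of the 10 genes and of the 8 related lists, 1 point a gene tested. Red points had an adjusted p under 0.05, and the blue bar is the list's median. Medians ran from -0.73 for other Cyp2c and Cyp2j genes to 1.00 for EET-linked receptors and ion channels, beside -0.02 for all genes tested.

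With C1, 1 of the 105 related genes tested was called against HFD: Cyp3a11, a drug and steroid hydroxylase, was at 888, 729 and 983 CPM in HFD, against 315, 373 and 508 CPM with C1, and fell by 1.15 on the log2 scale (adjusted p = 0.0377). It was called without HFD replicate 2 or HFD+C1 replicate 3 but not without any 1 of the other 4 libraries (adjusted p 0.0799 to 0.279). With C2 0 of 105 were called. Por was at 75.9, 84.9 and 94.9 CPM with C1 and 51.9, 123 and 126 CPM with C2. Cyp2c39 was at 2.53, 1.72 and 4.30 CPM with C1 and 1.77, 1.42 and 1.88 CPM with C2. The log2 difference of Cyp2c39 between HFD+C2 and HFD was -1.04 (SE 0.27, adjusted p = 0.695), with every HFD+C2 library below every HFD library. The hepatocyte factor gene Foxa2 had the smallest p of the transcription factor list in both comparisons, with log2 differences of -0.62 with C1 (adjusted p = 0.237) and -1.26 with C2 (adjusted p = 0.262).

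Against NCD, with controls shared with the diet comparison, 5 related genes were called higher and 11 lower of 107 tested with C1, and 4 higher and 8 lower of 108 with C2. Cyp4a12b and Cyp4a12a, which encode fatty acid omega-hydroxylases, were both lower. With C1 the log2 changes were -2.43 (adjusted p = 0.0183) and -1.56 (0.0486), and with C2 -2.86 (0.0206) and -2.11 (0.0206). In HFD without a compound, Cyp4a12b was at 3.36, 17.2 and 3.97 CPM, against 37.9, 59.6 and 41.6 CPM in NCD. Cyp4a12a was at 44.1, 137 and 44.9 CPM in HFD, against 167, 273 and 184 CPM in NCD. Neither gene was called for the diet, nor with C1 or C2 against HFD. Cyp2c55 had log2 changes of -2.72 with C1 (adjusted p = 0.00787) and -2.52 with C2 (0.0457), the latter being -3.28 and not a call without HFD+C2 replicate 2 (adjusted p = 0.0616). Cyp2c69 was also called lower with C1 (adjusted p = 0.0359), on 7 reads in HFD+C1 and 62 in NCD, so it passed the filter through NCD alone. Por (-0.94, adjusted p = 0.0482) and Acsl4 (-2.20, 0.0486) were called lower with C1, and Acsl4 was at -1.42 without NCD replicate 1. Alox15 was called lower with C2 (adjusted p = 0.0430), on 3 reads in HFD+C2 and 63 in NCD, so it passed the filter through NCD alone. Its pooled CPM was 41.7 times higher in NCD (13.6 to 207, for counting error only). Of the xenobiotic and sterol P450 genes, Cyp2b10 (-4.47 and -5.12) and Cyp3a11 (-3.25 and -2.08) were called lower with both, and Cyp51 with C2 (-3.39). Without HFD+C1 replicate 3 the C1 value of Cyp2b10 was -5.17. Cyp2b13 rose by 3.98 and 3.57 and Cyp2b9 by 3.68 and 3.18. Cyp2b13 had 558 reads with C1, 474 with C2 and 24 in NCD, so it passed the filter through the treated groups alone. Its fitted values rest on those few NCD reads. Without NCD replicate 3 the values of Cyp2b13 were 4.74 and 4.26, and without HFD+C2 replicate 2 its C2 value was 2.93, none of these a call. Dbp was called higher with both, from the same 3 NCD reads, with ratios of pooled CPM of 32.5 (11 to 159) with C1 and 61.8 (21.0 to 301) with C2. Nfe2l2, which encodes the oxidative stress factor NRF2, rose by 1.13 (adjusted p = 0.0433) and 1.34 (0.0498). Markers of other liver cells were called higher in the same comparisons. With C1 these were the macrophage genes Cd68 (1.70, adjusted p = 0.0399) and Clec4f (0.94, 0.0482) and the collagen genes Col1a1 (2.12, 0.0433) and Col3a1 (1.16, 0.0386), and with C2 Lyve1 (2.84, 0.0257) and Col3a1 (1.36, 0.0491). Their part in these values was not tested. With these marker genes there were 20 calls with C1 and 14 with C2, and of these 0 to 6 and 1 to 2 were called when 1 treated library was left out.

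Likeness of profile was measured as the root mean square difference of log2(CPM + 1) values, centred on each gene's mean over the 12 libraries, among 10133 genes with a mean of at least 50 reads. Cyp2c40 was below that minimum. Cyp2c37 and Cyp2c50 were each other's closest gene, at 0.15, against their own spread of 0.47 and 0.51 on the same scale. The closest to Cyp2c54 was Cyp2c29 (0.32). The 3 closest to Cyp2c29 were Urad (0.26), C6 (0.26) and C8b (0.29), and those of Cyp2c38 were Smpd3 (0.28), Abcb4 (0.29) and S100a11 (0.31). Cyp2c70 was closest to Lifr (0.18), Serpina3k (0.26) and Gm36264 (0.27), and Cyp2c44 to Ahsg (0.17), Cyp4f15 (0.20) and Gtf3a (0.20). For Cyp2j5 the closest were Cpsf2 (0.080), N4bp2l2 (0.081) and Zw10 (0.081). Ephx2, with a spread of its own of 0.090, was closest to Fam76a (0.063), Dnajc22 (0.065) and Azi2 (0.073), where a small distance says only that all of them varied little.

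Within each group, the library that was lowest or highest for each of the 10 genes was counted beside the same over all genes. NCD replicate 1 was the lowest NCD library for 6 of them, beside 37.2% of all genes, and the highest for the other 4 (Cyp2c40, Cyp2c70, Cyp2j5 and Ephx2), beside 46.4%. HFD replicate 2 was the highest HFD library for 8 of the 10, beside 47.4%. HFD replicate 1 was the lowest for 7, beside 41.2% of all 13466 genes compared, and HFD+C2 replicate 1 was the lowest HFD+C2 library for 7, beside 52.6%. Together the 10 genes took 0.462%, 0.766% and 0.685% of the reads in genes in NCD replicates 1 to 3, 0.350% to 0.485% in HFD, 0.450% to 0.491% with C1 and 0.428% to 0.502% with C2.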

How the data were processed

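RNA was extracted from mouse liver with Tri Reagent and sequenced from Advanta RNA-seq XT libraries, per the labels' protocols. The authors deposited 3 tables of read counts per gene. Trimmomatic 0.39, STAR 2.7, DESeq2 and mm10 are named, per the submitters' processing notes, while the annotation, the counting tool and its use of strand are not given in the sources used here. The deposited tables are called normalized but hold whole-number counts, and the HFD columns repeated among them differed in 0 cells. All value columns were matched to a library (0 unmatched), and 4 rows that name no gene were left out of library sizes and tests. Their share of a library's reads was between 27.3% and 58.2%.

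Each pair of groups was fitted on its 6 libraries with edgeR 4.0.16 in R 4.3.3 (TMM scaling, quasi-likelihood test, mean count per gene 10 or more), with Benjamini-Hochberg adjustment over all genes and calls at an adjusted p under 0.05. CPM per library uses the reads in genes, and fitted log2 changes use TMM. The alternatives were limma 3.58.1 on log2(CPM + 1), DESeq2 1.42.0, other scalings, the filter dropped or raised to a mean count of 50, all 12 libraries in 1 fit, a robust fit, the replicate block and each library left out (for the related and marker genes that were called, this was added after seeing the data). The code was tested on simulated data. The text names all 10 genes, up to 2 called genes per direction of each related list in each comparison (where a list has no call, at most 2 with the smallest p, of which only some are printed), and the 3 genes most alike in profile. Named beyond this rule are Fads2, Cyp2c67 and the uncalled Cyp2c68 for the diet, and Cyp3a11 for HFD+C2 against NCD. The members and lists were chosen with earlier results of these data known. The p-values weigh the difference between groups against the spread between these libraries.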

Additional observations from a re-analysis of the deposited data

Results flagged for a closer look

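In 3 of 4 classes, reads that the tables do not assign to a gene were more frequent in HFD+C2 replicate 1 than in any HFD control library. Ambiguous reads were 9.04% of its reads, against at most 4.96% in HFD. Reads outside annotated features were 10.9%, against at most 6.84%, and unmapped reads were 21.9%, against at most 16.6%. Multimapping reads went the other way, at 5.17% against 7.28% to 7.50% in HFD. NCD replicate 1 had 23.2% of reads outside annotated features and 21.5% unmapped. HFD+C2 replicate 1 was also the lowest of its group for 7 of the 10 genes, beside 52.6% of all genes. The part of these reads in the gene values was not tested.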

How the results depend on the processing

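Of 950 values of single genes under an alternative, 850 kept their direction and side of the threshold, 43 passed it newly, 18 no longer passed and 39 changed sign, none of the last in the diet comparison. Where a number below changed, the cause was not tested. Calls among the 10 genes for the diet (3, with 836 over all genes) became 2 with limma (361; Cyp2c40 at an adjusted p of 0.0527), 5 with DESeq2 (2298), 6 without a filter (4493), 5 with all 12 libraries in 1 fit (1996), and 0 to 7 with a library left out (7 and 1838 without NCD replicate 1, 0 and 23 or 25 without HFD replicate 1 or 3). For C1 against HFD (0, with 7) they became 1 without a filter (206) and 0 to 2 with a library left out (2 and 102 without HFD replicate 2), and for C2 against HFD (0, with 3) 1 without a filter (152). For HFD+C1 against NCD (3, with 460) they became 5 without a filter (3697) and 0 to 6 with a library left out (6 and 1583 without NCD replicate 1, 0 and 11 to 49 without each HFD+C1 library). For HFD+C2 against NCD (0, with 219) they became 3 with DESeq2 (1425), 3 without a filter (3194), 2 with library size alone (523), 3 with all 12 libraries (2196), 0 to 1 with a library left out and 6 without NCD replicate 1 and HFD+C2 replicate 1 together (1273). No filter moved the median log2 change of all genes by -0.60 to -0.70 and library size alone by -0.19 to -0.28 in the comparisons with NCD.

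Same-numbered libraries did not pair: 7 of 18 pairs deviated together with a correlation over 0.1 (range -0.224 to 0.385). With the replicate block, HFD+C2 against NCD gave 4 calls (785 over all genes), Cyp2c38 (1.44), Cyp2c40 (-3.30), Cyp2c44 (1.11) and Cyp2c70 (-1.04), and Cyp2c70 in C1 against HFD was 0.0054 and Cyp2c37 in HFD+C2 against NCD 0.057. Other log2 values that changed sign, none of them called: Cyp2c70 in C1 against HFD was 0.0051 with limma. In C2 against C1 with library size alone, Cyp2c54 was -0.019 and Ephx2 -0.048. Cyp2c50 in HFD+C1 against NCD was -0.090 with library size alone. In HFD+C2 against NCD, Cyp2c37 was 0.071 with limma, Cyp2j5 0.099 without a filter, and Cyp2c50 -0.00019 with DESeq2, -0.010 with a mean of at least 50 counts, -0.036 with upper-quartile scaling, -9.1e-05 with median-ratio scaling, -0.22 with library size alone, -0.0094 with all 12 libraries and -0.36 without NCD replicate 1 and HFD+C2 replicate 1 together. With a library left out, values that changed sign ranged as follows. In HFD+C1 against HFD they were Cyp2c44 -0.25 to 0.030 and Cyp2c70 -0.18 to 0.25. In HFD+C2 against HFD they were Cyp2c40 -0.66 to 0.77, Cyp2c44 -0.086 to 0.57 and Ephx2 -0.010 to 0.17. In HFD+C2 against HFD+C1 they were Cyp2c29 -0.19 to 0.27, Cyp2c37 -0.074 to 0.18, Cyp2c50 -0.18 to 0.0042, Cyp2c54 -0.11 to 0.18, Cyp2j5 -0.019 to 0.19 and Ephx2 -0.080 to 0.11. In HFD+C1 against NCD they were Cyp2c37 -0.60 to 0.066 and Cyp2c50 -0.35 to 0.38. In HFD+C2 against NCD they were Cyp2c37 -0.51 to 0.16, Cyp2c50 -0.41 to 0.32 and Cyp2j5 -0.15 to 0.049. For the related and marker genes called against NCD, a choice made after seeing the data, leaving out NCD replicate 1, 2 or 3 gave calls for 29 of 29 genes tested, 27 of 30 and 15 of 28 for the diet, 20 of 20, 13 of 20 and 4 of 19 with C1, and 8 of 13, 6 of 14 and 1 of 13 with C2. Depth limits Cyp2c40 most, at 4 to 35 reads a library in the HFD-fed groups.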
